A study of Mus musculus and Rattus norvegicus with 8 samples.

Results

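Metallothioneins are small, cysteine-rich proteins that bind zinc and copper in the cytosol. Slc30a1 encodes the transporter that carries zinc out of the cell across the plasma membrane. Mt1 and Mt2 are expressed in most tissues, and are known to be switched on by zinc through the sensor MTF-1, by glucocorticoids and by interleukin-6, whereas Mt3 was first described in brain. The genes were followed here through every probe set (the group of short array features that together report on a transcript) whose only listed symbol is Mt1, Mt2, Mt3 or Slc30a1, with Mt1a and Mt2A accepted as the rat names. The rule found 4 genes of the 9933 that have a probe set of their own in either species. It took 6 probe sets of 21162, of which 4 of 12422 lay on the mouse array, 1 for each gene, and 2 of 8740 on the rat array, for Mt3 and Slc30a1. The rat table gives no probe set to Mt1, Mt1a or Mt2A alone, so rat Mt1 and Mt2 were measured here only by probe sets listed under several genes, which are described apart.

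Total RNA of whole lung was measured on 8 Affymetrix arrays, 1 for each sample. Male C57BL6 mice of 7 to 8 weeks breathed spontaneously (2 controls) or were ventilated mechanically at a large tidal volume (2 arrays). The mouse regimens were 17 ml/kg for 6 hours and 35 ml/kg for 2 hours, and the labels do not say which array had which, so both form 1 ventilated group. Male Wistar rats of 8 weeks were ventilated at 12 ml/kg for 5 hours with room air (2 arrays) or breathed spontaneously through the same kind of tracheal cannula (2 controls). The labels do not state whether each sample is 1 animal or a pool, and the p-values measure only the spread between these samples. Signals are given after quantile normalisation of the 4 arrays of a species, on a linear scale, and the floor below which signals were not read is 14.2 in the mouse and 11.5 in the rat. Array signals have no counting depth, and 2 arrays a group limit the precision of every value. In whole lung, more RNA per cell and more cells of a type cannot be told apart.

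The mouse arrays differed among themselves in ways that touch the results. The hybridisation spike-ins are control RNAs added to the labelled sample. By the median over 9 spike-in features, they stood at 2.62 times their control level on ventilated 1 and at 0.96 times on ventilated 2. The 3' to 5' signal ratio of Gapdh, a sign of RNA length, ranged from 1.16 on control 2 to 2.96 on control 1, with 1.53 and 2.48 on ventilated 1 and 2. The same ratio for actin was closer together, from 1.80 on ventilated 1 to 2.21 on ventilated 2. The spike-ins and both ratios were read from the deposited values, before quantile normalisation. Sums over marker lists cover the genes that passed the low-signal filter. That of lung epithelium markers, with 8 of 12 tested, was 27810 and 29350 in control and 28230 and 26490 in ventilated mice, and with 10 of 12 tested it was 18030 and 18490 against 14730 and 16080 in the rats. The rat table holds no control probe sets, so spike-ins and RNA length were not analysed in the rat.

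Mt3, Mt2 and Mt1 lie side by side on the plus strand of mouse chromosome 8 (GRCm38.p6), Mt3 at 94152607 to 94154148, Mt2 at 94172618 to 94173567 and Mt1 at 94178883 to 94180327. Mt2 and Mt1 are 5315 bases apart, and Mt3 ends 18469 bases before Mt2. Slc30a1 lies on chromosome 1 at 191906697 to 191913248. The sequences around the promoter starts are shown as a description, and their link to the array signals was not tested. Each runs 5' to 3' on the plus strand and holds 250 bases before and 30 bases from the start used in the RefSeq promoter table (GRCm38.p6), and all 4 genes were matched by symbol. That start is the annotated gene start for Mt2 and Mt3, but lies 206 bases after it for Mt1 and 84 bases after it for Slc30a1, at 94179089 and 191906781, so part of these 2 windows is inside the annotated gene. Which transcript the table's start belongs to is not given in the sources used here. Capitals mark the core of the metal response element (MRE), the DNA word bound by MTF-1, searched as TGCACNC and TGCGCNC on both strands. The windows are chr8:94178839-94179118 for Mt1, chr8:94172368-94172647 for Mt2, chr8:94152357-94152636 for Mt3 and chr1:191906531-191906810 for Slc30a1.
Mt1: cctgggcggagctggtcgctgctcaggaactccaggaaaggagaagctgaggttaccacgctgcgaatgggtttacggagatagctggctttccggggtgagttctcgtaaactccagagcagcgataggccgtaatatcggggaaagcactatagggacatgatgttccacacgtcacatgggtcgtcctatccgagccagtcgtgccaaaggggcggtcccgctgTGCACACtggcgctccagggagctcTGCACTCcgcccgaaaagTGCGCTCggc
Mt2: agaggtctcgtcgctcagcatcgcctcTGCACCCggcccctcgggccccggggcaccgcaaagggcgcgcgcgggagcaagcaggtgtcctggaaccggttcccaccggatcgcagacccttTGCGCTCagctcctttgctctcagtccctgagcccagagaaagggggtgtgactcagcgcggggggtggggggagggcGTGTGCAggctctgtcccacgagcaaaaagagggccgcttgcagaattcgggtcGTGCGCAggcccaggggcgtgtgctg
Mt3: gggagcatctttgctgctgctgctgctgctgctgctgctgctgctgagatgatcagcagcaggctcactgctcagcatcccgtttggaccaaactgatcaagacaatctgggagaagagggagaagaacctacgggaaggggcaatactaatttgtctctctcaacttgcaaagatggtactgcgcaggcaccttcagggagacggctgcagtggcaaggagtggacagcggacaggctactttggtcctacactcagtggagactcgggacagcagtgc
Slc30a1: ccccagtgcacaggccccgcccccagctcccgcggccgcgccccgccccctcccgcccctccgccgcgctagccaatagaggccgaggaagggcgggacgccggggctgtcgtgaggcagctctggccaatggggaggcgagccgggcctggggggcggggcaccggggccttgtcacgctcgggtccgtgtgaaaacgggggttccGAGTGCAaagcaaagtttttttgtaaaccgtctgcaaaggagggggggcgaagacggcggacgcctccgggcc

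The Mt1 window held 3 MRE cores, the Mt2 window 4, the Slc30a1 window 1 and the Mt3 window 0. Among 32851 mouse promoter windows of the same length, 24.1% held at least 1 such core, 1.73% at least 3 and 0.405% at least 4. The Mt1 cores began at bases -23, 3 and 21 counted from the promoter table's start, and the Mt2 cores at -223, -128, -50 and 5. The antioxidant response element core TGACNNNGC, searched on both strands and present in 11.5% of windows, was found once in the Mt2 window, at -79, and once in that of Slc30a1, at -82, on the same count. The GC box GGGCGG, the word read by SP1, was found 3 times near Mt1, 5 times near Slc30a1 and not near Mt2 or Mt3, against 34.7% of windows with at least 1, 10% with at least 3 and 2.43% with at least 5. One GC box of Mt1 overlaps an MRE core at base 9. A match describes the letters only, and the absence of one says nothing of the factor.

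**Figure D1:**
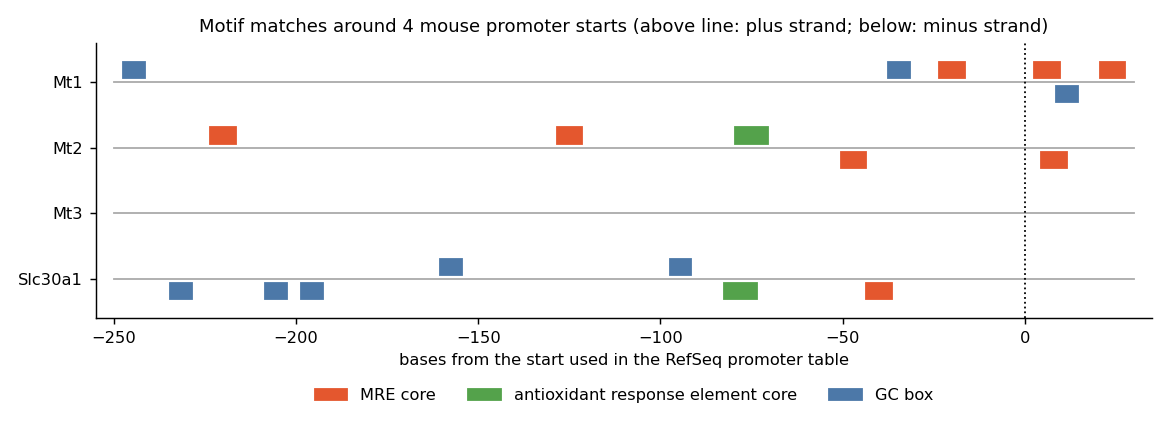
Map of the motif matches in the 4 windows, with distance in bases from the start used in the RefSeq promoter table on the x axis (for Mt1 and Slc30a1 this is 206 and 84 bases after the annotated gene start) and 1 line for each mouse gene; boxes above a line are on the plus strand and boxes below it on the minus strand. Mt1 and Mt2 carry 3 and 4 MRE cores, Slc30a1 carries 1 and Mt3 none.

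Mt1 and Mt2 were higher on both ventilated mouse arrays than on both controls, and by far the most on ventilated 1. The normalised signal of Mt1 was 271.8 on control 1, 623.1 on control 2, 3674 on ventilated 1 and 725.4 on ventilated 2. Ventilated 1 stood apart at 8.21 times the control mean, while ventilated 2, at 1.62 times the control mean, was only 1.16 times control 2. Mt2 followed the same order, with 495.6 and 898.5 on controls 1 and 2 and 4919 and 1154 on ventilated 1 and 2. Its ventilated arrays lay at 7.06 and 1.66 times the control mean, and ventilated 2 was 1.28 times control 2. The groups did not overlap for either gene, an arrangement with both ventilated arrays on the high side that 13% of the mouse genes tested also showed.

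The spread within each group was wide for both genes. Mt1 had a mean signal of 447 ± 248 in controls and 2200 ± 2085 in ventilated mice (SD, n = 2 each), a log2 difference of 1.99 ± 0.77 (SE), which is 3.97-fold. Mt2 had means of 697 ± 285 and 3037 ± 2662 (SD, n = 2 each), a log2 difference of 1.84 ± 0.67 (SE), or 3.57-fold. These were the 13th and 21st largest positive differences of 6888 genes. By limma's test over all genes neither passed: the unadjusted p was 0.0393 for Mt1 and 0.0312 for Mt2, and the adjusted p (Benjamini-Hochberg) was 0.9997 for both. The test called 0 of the 6888 mouse genes (0% called), with 178 at an unadjusted p under 0.05.

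The size of both differences depended on single arrays. Without ventilated 1 the log2 difference was 0.81 ± 0.57 for Mt1 and 0.78 ± 0.43 for Mt2 (SE), or 1.75-fold and 1.71-fold. Without ventilated 2 it was 3.18 ± 0.59 and 2.92 ± 0.45 (SE), or 9.08-fold and 7.55-fold. Without control 1 the value was 1.41 for both genes, and without control 2 it was 2.61 for Mt1 and 2.30 for Mt2. All of these were positive and none passed the test, and the adjusted p was 0.527 or more in each. Single ventilated arrays can be set against the mean of the controls on the log2 scale. On ventilated 1 Mt1 then stood at 3.16 and Mt2 at 2.88, with 0.16% and 0.232% of genes higher. On ventilated 2 they stood at 0.82 and 0.79, with 3.61% and 4.01% of genes higher. The controls differed from each other by 1.20 and 0.86 on the same scale, control 2 being the higher, with 3.66% and 7.65% of genes further apart in that direction. Mt1 and Mt2 are close paralogs, and how far their probes share targets was not tested.

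**Figure D2:**
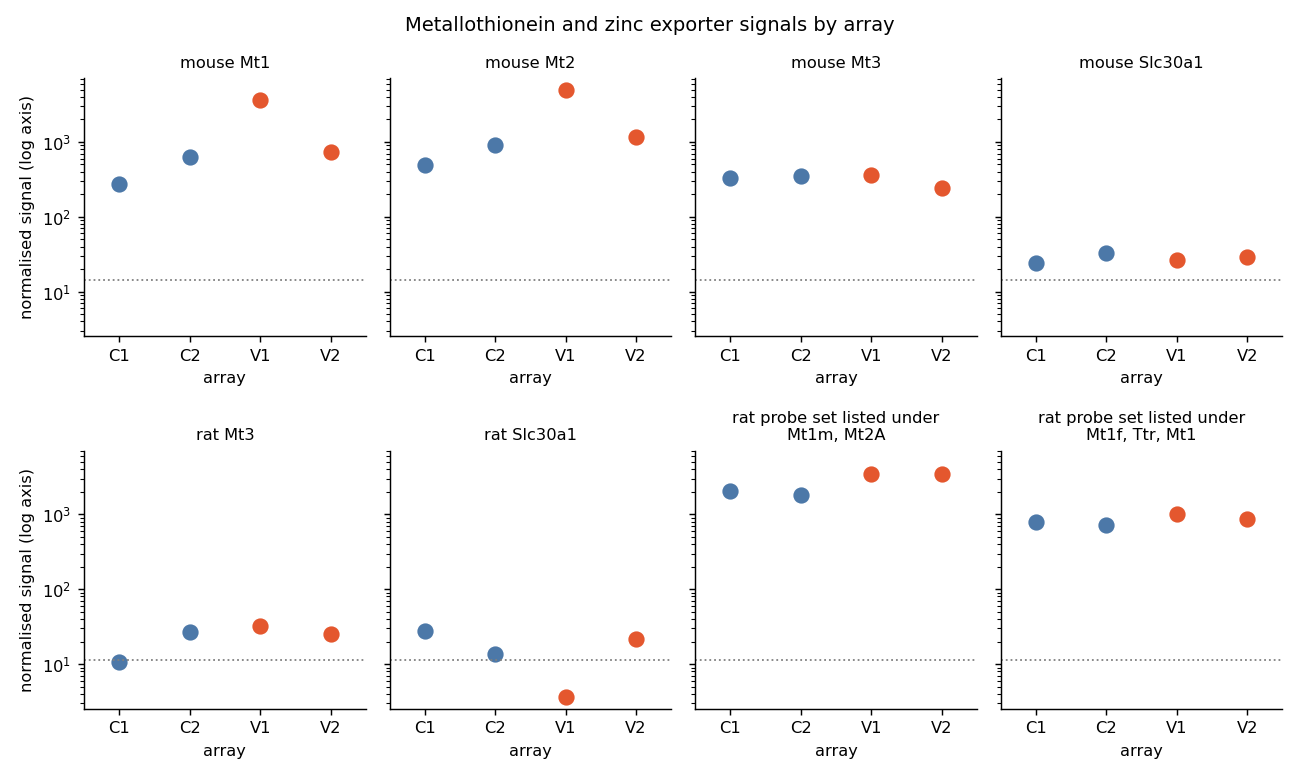
Normalised signal on a log axis for each array (C1 and C2 controls in blue, V1 and V2 ventilated in red), 1 panel for each probe set, with the floor as a dotted line. Mouse Mt1 and Mt2 peak on ventilated 1, at 3674 and 4919. The rat probe set listed under Mt1m and Mt2A has both ventilated arrays above both controls, as do 27.8% of rat genes.

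**Figure D3:**
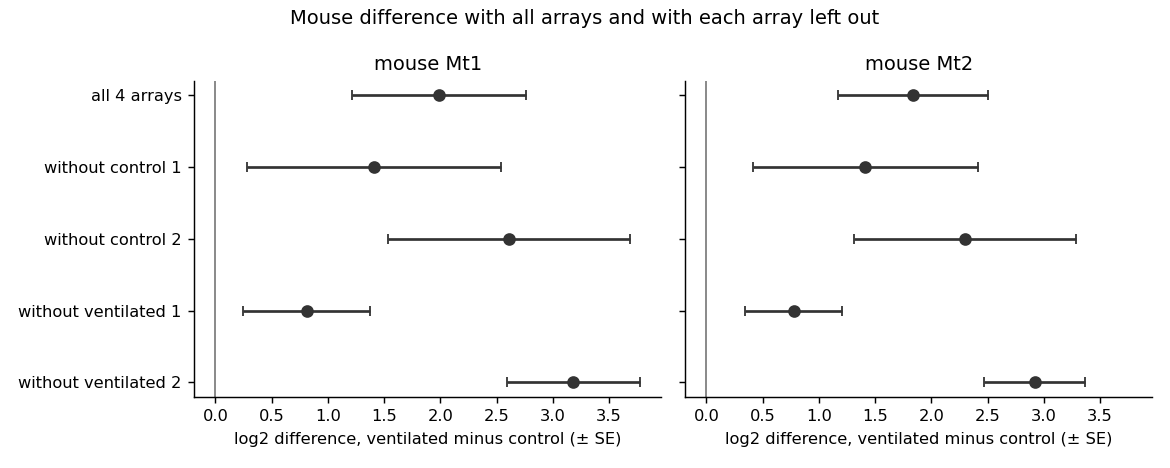
Log2 difference of mouse Mt1 and Mt2 (ventilated minus control, x axis, bars ± SE of the limma fit) with all 4 arrays and with each array left out in turn. All values are positive and the lowest, 0.81 for Mt1 and 0.78 for Mt2, are those without ventilated 1.

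The summed signal of the neutrophil markers, like Mt1 and Mt2, was highest on ventilated 1 and lowest on control 1, but on ventilated 2 it lay below control 2. Of the 15 genes on the list 14 were tested, 13 with a positive difference, against 46.8% of all mouse genes. The 13 include Mpo and Elane, at log2 differences of 0.02 and 0.14. Single markers varied: 9 of the 14 were highest on ventilated 1, and 6 were also lowest on control 1. The same counts were not made over all mouse genes. The sum was 1308 and 2558 on controls 1 and 2 against 10630 and 2217 on ventilated 1 and 2. Within that list the calgranulin genes S100a8 and S100a9 reached 4267 and 2744 on ventilated 1, most of the sum there. Elane, the neutrophil elastase gene, was between 47.1 and 80.7 on all 4 arrays. Macrophage markers, with 9 of 12 tested, summed to 5593 and 5626 in controls and to 8048 and 4915 on ventilated 1 and 2. Of these 9 markers 6 were highest on ventilated 1, and 1 was also lowest on control 1. By comparison, 3 of 9 T cell and thymus markers and 1 of 8 lung epithelium markers were highest on ventilated 1. The T cell and thymus sums were 700 and 531 against 765 and 825. The part of these cells, and of the brighter spike-ins on ventilated 1, in the Mt1 and Mt2 values was not tested.

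**Figure D4:**
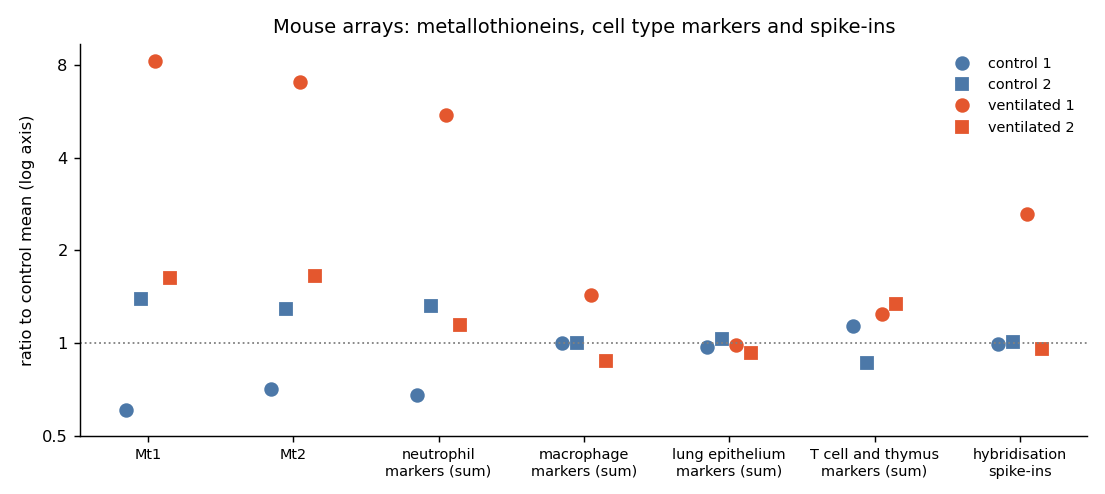
Signal on each mouse array divided by the control mean (y axis, log), for Mt1, Mt2, the summed signals of 4 cell type marker lists and the median of the hybridisation spike-ins; blue marks are controls and red marks ventilated arrays. Mt1, Mt2, the neutrophil and macrophage sums and the spike-ins are highest on ventilated 1, where the spike-ins are at 2.62. The spike-ins are deposited values without quantile normalisation, and the other signals are normalised.

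The genes most like Mt1 on the mouse arrays were ranked by distance between log2 profiles centred on their mean, over the 4 arrays and among the 2154 other genes that ranged over at least 1 on that scale. This ranking was chosen after the values were seen, and with 4 arrays driven by 1 high value it is a description only. The nearest were S100a9 (distance 0.239), Mt2 (0.334), Bcl3, a nuclear partner of NF-kappaB (0.407), S100a8 (0.418) and Socs3, a feedback inhibitor of cytokine signalling (0.527). Their levels on ventilated 1 were the highest of the 4 arrays. Bcl3 read 67.4 and 112.4 on controls 1 and 2, then 634.6 on ventilated 1 and 136.5 on ventilated 2. Socs3 read 72.1 and 135.8 against 730.4 and 115.8, so that ventilated 2 lay between the controls, and without ventilated 1 its log2 difference was -0.10. Without that array S100a9, Bcl3 and S100a8 had 0.56, 0.66 and 0.36, against 1.88, 1.76 and 1.60 with all 4. None of the 5 passed limma's test (adjusted p = 0.9997 for each).

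Mt3, whose product is the metallothionein known from neurons and astrocytes, had another order of arrays. In the mouse its signal was 333.1 and 346.0 on the controls and 361.1 and 239.5 on ventilated 1 and 2. Ventilated 1 was the highest array and ventilated 2 the lowest, so the groups overlapped, and the log2 difference was -0.21 ± 0.31 (SE; limma adjusted p = 0.9997). The difference was 0.09 without ventilated 2 and -0.51 without ventilated 1. Of the 15 astrocyte and neuron markers 12 were on the mouse array and 6 were tested, and 4 of the 6 had a negative difference. Their summed signal was 547 and 580 on the controls against 916 and 630 on ventilated 1 and 2, and most of it was Tubb3, a tubulin gene named here after its values were seen, at 335.6 and 329.9 against 817.5 and 354.7. Aqp4, a water channel of astrocytes, was at 69.3 and 98.5 against 18.9 and 41.9. The part of these cells in the Mt3 values was not tested. Gfap, which defines astrocytes, was at 40.2 and 41.8 against 15.6 and 46.6.

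In the rat, the Mt3 signal was near the floor. It was 10.8 on control 1, below the floor, 27.2 on control 2, and 32.3 and 24.9 on ventilated 1 and 2. Control 2 lay between the ventilated arrays, and the log2 difference, 0.68 ± 0.46 (SE), did not pass limma's test (adjusted p = 0.411). Without control 1 it was 0.06 and without control 2 it was 1.32 (adjusted p = 0.185), and with a floor at the 40th percentile it was 0.12. The test of the difference between species gave 0.89 ± 0.60 (rat minus mouse, log2, SE; adjusted p = 0.587 by limma over 2256 shared genes), and ran from 0.27 without rat control 1 to 1.52 without rat control 2. The fit over both species gave 0.24 ± 0.32 (SE; adjusted p = 0.823).

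The zinc exporter gene Slc30a1 was dim and without a difference beyond its spread in either species. Its mouse signals were 24.3 and 33.1 in controls and 26.2 and 29.0 in ventilated mice. Both ventilated arrays lay between the controls, and the log2 difference was -0.04 ± 0.41 (SE; limma adjusted p = 0.9997). In the rat it had 27.6 and 13.8 in controls and 3.63, below the floor, and 21.5 on ventilated 1 and 2. The log2 difference was -0.31 ± 0.48 (SE; limma adjusted p = 0.735), and with single arrays left out it ran from -0.81 without control 2 to 0.19 without control 1. With a floor of 1 it was -1.14. Over both species the difference was -0.18 ± 0.33 (SE; adjusted p = 0.878), and the difference between species was -0.27 ± 0.67 (SE; adjusted p = 0.900, limma, 8 arrays). Thus 0 of 4 members in the mouse and 0 of 2 in the rat passed the test, where 5.78% of 3876 rat genes were called, and 0 of the 2256 shared genes (0% called) passed in the fit over both species, with 173 at an unadjusted p under 0.05. Between species 3 genes were called (0.133%), none of them a member.

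Rat Mt1 and Mt2 were not measured singly, but 2 rat probe sets list metallothioneins among several genes. The probe set listed under both Mt1m and Mt2A rose in ventilated rats. Its signal was 2037 and 1820 in controls and 3435 and 3417 in ventilated rats, and both members of each group lay close together. The groups did not overlap, and 27.8% of the 3876 rat genes tested also had both ventilated arrays above both controls. The means were 1928 ± 153 and 3426 ± 12.9 (SD, n = 2 each), a log2 difference of 0.83 ± 0.10 (SE), or 1.78-fold, with an adjusted p of 0.0121 by limma over 6624 rat probe sets, of which 5.96% were called. The fold was kept when arrays were left out, at a log2 difference of 0.75 to 0.87, but the call was lost without any 1 of the 4 arrays (adjusted p from 0.136 to 0.323), as were all calls of the rat fit. It was also lost with a floor at the 40th percentile, with no filter on low signals and with no variance trend (adjusted p = 0.0833, 0.121 and 0.0922 by limma). It cannot be said which of the 2 genes, or whether another family member, gave this signal.

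The second rat probe set is listed under Mt1f, Mt1 and Ttr, the last a plasma thyroid hormone carrier made in the liver. Its signal was 780.9 and 722.3 in controls and 1009 and 874.9 in ventilated rats, a log2 difference of 0.32 ± 0.13 (SE), or 1.25-fold. Both ventilated arrays were above both controls, as for 27.8% of rat genes, and the adjusted p was 0.188 by limma. Ttr, measured by a probe set of its own, rose from 35.3 and 44.4 to 113 and 123.9, a log2 difference of 1.58 ± 0.22 (SE; limma adjusted p = 0.0169). The Ttr call was lost without any 1 of the 4 rat arrays (adjusted p from 0.145 to 0.302), with a floor at the 40th percentile (0.0982) and with no filter on low signals (0.117).

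The marker sums of T cells and thymus, fat, liver and neutrophils were higher on both ventilated rat arrays than on both controls. Of single rat genes 27.8% showed that order. The lung epithelium and macrophage sums were lower on both ventilated arrays, an order that 27.2% of single rat genes showed. The macrophage sum, with 4 of 12 tested, was 4053 and 4204 in controls and 2461 and 3253 in ventilated rats. Of these 4 genes 2 were higher and 2 lower. The astrocyte and neuron sums overlapped between the groups. The T cell and thymus sum, with 11 of 16 markers tested, was 902 and 774 in controls and 7490 and 8287 in ventilated rats. The fat sum, with 9 of 13 tested, was 1791 and 1646 against 3435 and 3728, with 7 of the 9 higher and 2 lower. Ucp1, which defines brown fat, was at 75.2 and 58.9 against 1216 and 1182. The 2 lower genes, Lep and Lpl, made up most of the control sum. Lep was at 734.6 and 595 against 333.2 and 504.7, and Lpl at 653.2 and 670.8 against 584.3 and 587.3. The liver sum, with 12 of 14 tested, was 1835 and 2079 against 2563 and 2623. Alb, the albumin gene, was at 34.7 and 29.7 against 70.6 and 61.4 (limma adjusted p = 0.0607). Hp, of the same list, was at 911.1 and 1057 against 1017 and 1043. The neutrophil sum, with 7 of 15 tested, was 4450 and 4556 against 5730 and 5417, with 6 of the 7 higher and 1 lower. Most of it was S100a8 and S100a9. S100a8 was at 1524 and 1685 against 2505 and 2276, and S100a9 at 1723 and 1629 against 2017 and 1891. The lower gene, Lcn2, was at 723.6 and 735.4 against 447.1 and 562.2. Mmp9 and Cxcr2 overlapped between the groups. The part of these tissues and cells in the rise of the probe set listed under Mt1m and Mt2A was not tested.

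Other genes of zinc and copper transport and storage showed no common direction. Of 37 on the list 20 were tested in the mouse, 10 with a positive and 10 with a negative difference, and 0 passed limma's test in either direction, with 1 at an unadjusted p under 0.05. Their median log2 difference was -0.01, against -0.03 over all mouse genes. In the rat 4 of the list were tested, 3 positive and 1 negative, and 0 passed (1 at an unadjusted p under 0.05), with a median of 0.06 against -0.01 over all rat genes. Cp, which encodes the plasma copper protein ceruloplasmin, had the smallest p in both species. Its signal was 779.6 and 1470 in control against 528.5 and 652.2 in ventilated mice, and 132.8 and 160.1 against 100.8 and 70.5 in the rats. Both ventilated arrays lay below both controls in each species, as did those of 14.5% of mouse and 27.2% of rat genes. The log2 difference was -0.87 ± 0.35 in the mouse (SE; unadjusted p = 0.0471, limma adjusted p = 0.9997), -0.79 ± 0.24 in the rat (SE; adjusted p = 0.108) and -0.83 ± 0.23 over both (SE; adjusted p = 0.635). In the mouse it was -0.41 without control 2 and -1.34 without control 1.

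Of the zinc importers, Slc39a1 at the plasma membrane had 315.5 and 232.7 in control and 441.2 and 384.3 in ventilated mice, and Slc39a7, which releases zinc from the endoplasmic reticulum, had 490.9 and 469.2 against 692.5 and 632.3. Both were higher on both ventilated arrays, as were 13% of mouse genes, with log2 differences of 0.60 ± 0.29 and 0.46 ± 0.24 (SE). Slc39a4, the importer of the gut, had 692.5 and 834.1 against 648.4 and 489.4, a log2 difference of -0.43 ± 0.27 (SE). Its ventilated arrays were both lower, as were those of 14.5% of mouse genes. None of the 3 passed limma's test (adjusted p = 0.9997 for each). The value of Slc39a1 was 0.17 with its probe sets averaged and 0.39 without control 2, and that of Slc39a4 was -0.23 without ventilated 2. In the rat, Sod1, the copper and zinc superoxide dismutase gene, and the exporters Slc30a4 and Slc30a2 had log2 differences of 0.08 ± 0.12, 0.09 ± 0.30 and 0.03 ± 0.30 (SE), all within their spread.

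Of 12 known regulators of metallothionein genes 11 were tested in the mouse, 7 positive and 4 negative. The remaining gene, Il6, was on the mouse array but did not pass the low-signal filter. Their median log2 difference was 0.05, against -0.03 over all mouse genes, and 0 passed the test (1 at an unadjusted p under 0.05). Mtf1, the zinc sensor that binds MREs, had 54.5 and 83.8 on the controls and 56.4 and 47.1 on ventilated 1 and 2, where the groups overlapped (-0.39 ± 0.39, log2 difference with SE). Stat3, which carries the interleukin-6 signal, had 381.6 and 423.8 against 923.2 on ventilated 1 and 342.4 on ventilated 2, so that only ventilated 1 was above the controls (0.48 ± 0.47, log2 difference with SE). Sp1 had 280.4 and 281.3 against 138.1 and 194.5, a log2 difference of -0.78 ± 0.31 (SE; unadjusted p = 0.0425, limma adjusted p = 0.9997). Hif1a, the hypoxia factor, had a log2 difference of 0.35 ± 0.24 (SE). With single arrays left out, Mtf1 ran from -0.71 to -0.08 (without control 1 and control 2), Hif1a from 0.17 to 0.53 (without control 2 and control 1) and Stat3 from 0.17 to 1.19 (without ventilated 1 and ventilated 2).

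In the rat 9 of the 12 regulators were tested, 4 positive and 5 negative. Their median log2 difference was -0.20, against -0.01 over all rat genes. Beside the 5.78% of 3876 rat genes called, 1 regulator was called higher and 0 lower. That gene was Il6, the interleukin-6 gene. Its signal was 10.4 and 1.80 in controls, both below the floor, and 41.5 and 40.3 in ventilated rats. Set against the floor of 11.5, the rise was at least 3.56-fold (limma adjusted p = 0.0208). This bound depends on the floor chosen. With a floor at the 40th percentile the log2 difference was 0.59 (limma adjusted p = 0.0396). The call was lost without any 1 of the 4 arrays (adjusted p from 0.139 to 0.297), and when the probe sets of a gene were averaged the log2 difference was 1.05 (adjusted p = 0.0654). With a floor of 1 the adjusted p was 0.0832. Il6st, the shared signalling receptor of the interleukin-6 family, had 171.4 and 272.7 against 126 and 122.4, a log2 difference of -0.80 ± 0.24 (SE; adjusted p = 0.110), which was -0.47 without control 2 and -1.16 without control 1. Stat3 had 42.3 and 46.9 against 27.8 and 22.6 (-0.83 ± 0.26, log2 difference with SE, limma adjusted p = 0.118). Usf2 had 137.7 and 125.8 against 98.3 and 78.2 (-0.59 ± 0.20, log2 difference with SE, limma adjusted p = 0.139). Each had both ventilated arrays below both controls, as did 27.2% of rat genes.

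**Figure D5:**
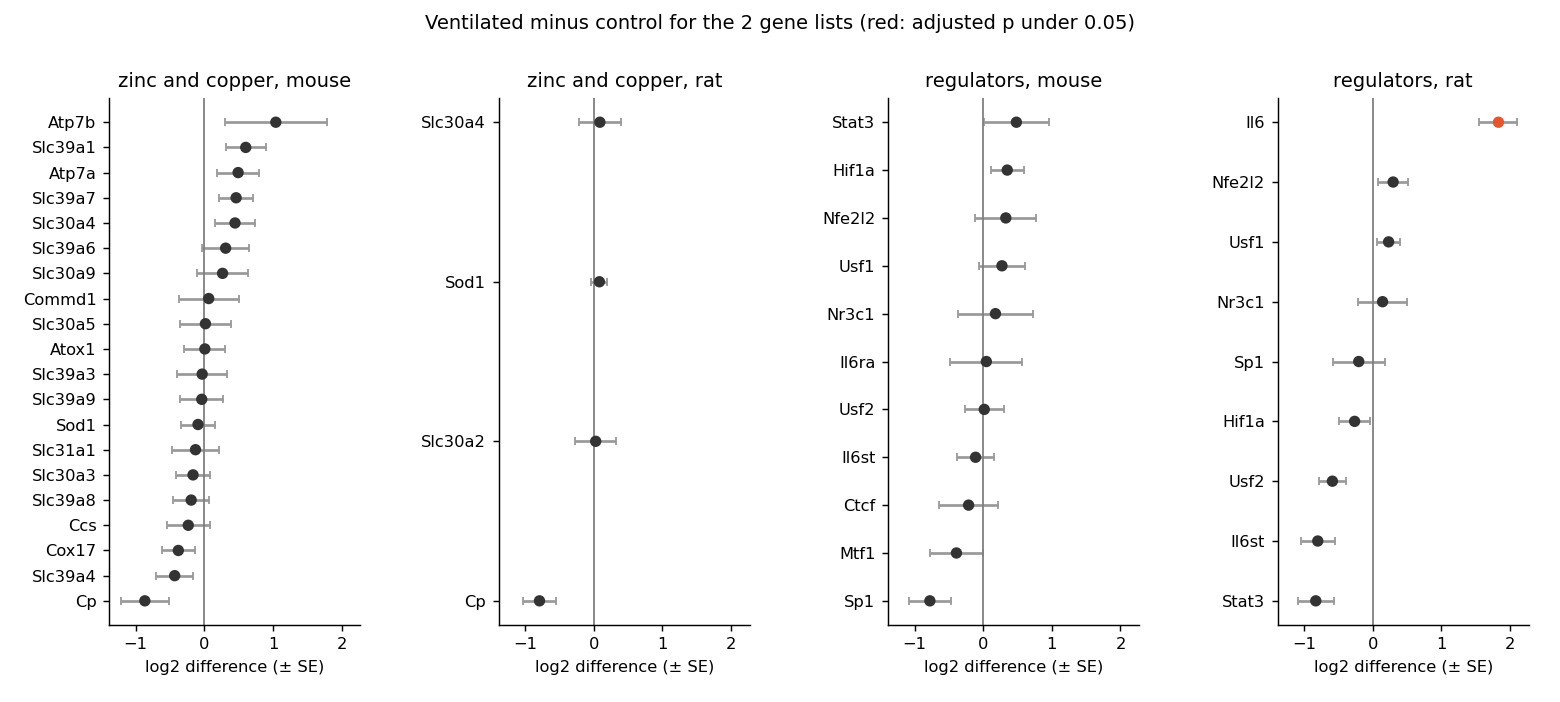
Log2 difference, ventilated minus control (x axis, bars ± SE of the limma fit), for the tested genes of the zinc and copper list and of the regulator list in mouse and rat; red marks an adjusted p under 0.05. Rat Il6 is the only gene so marked, and Cp is the lowest of the zinc and copper list in both species.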

How the data were processed

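The authors deposited 1 signal intensity per probe set and array, linear, with trimmed means of 149 to 150 on every array. The software behind these values is not given in the sources used here. Per the labels, cRNA made with an oligo-dT primer was hybridised to MG_U74Av2 (mouse) or RG_U34A (rat) arrays. Chip description files carried no measurement and were left out.

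Groups came from the sample titles. The 4 arrays of a species were quantile-normalised together, after removal of 66 mouse control features. Signals below the 25th percentile were set to it before taking log2. Each gene was read from the brightest probe set that the supplied platform tables give to it alone. Genes with a mean signal at or below the same percentile were dropped, leaving 6888 mouse and 3876 rat genes, with all 6 member probe sets among them. Ventilated arrays were set against controls by limma 3.58.1 (R 4.3.3) using lmFit and eBayes with a trended prior. Tests were two-sided, and a gene was called at a Benjamini-Hochberg adjusted p under 0.05 over all genes. For both species together, 2256 genes were matched by symbol with species as a term, and an interaction tested how the species differ. Probe sets with several symbols were tested among all rat probe sets. The fits were tested on simulated data.

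The members and gene lists were chosen with earlier results of these data known. Other genes were named if they belonged to a list and were called, and otherwise up to 4 for each list and species by smallest p. The planned ranking of genes like Mt1 needed Mt1 or Mt2 in both species and could not be applied, so the 5 nearest over the mouse arrays were named, by a distance chosen after seeing the data. Ttr was named for the probe set it shares with metallothioneins. Alternatives covered scaling, floor, filter, choice of probe set, variance prior, replicate numbers as a block, and omission of single arrays, where a lone array is taken to vary as the other group does.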

Additional observations from a re-analysis of the deposited data

How the results depend on the processing

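The log2 differences of mouse Mt1 and Mt2 were positive and uncalled under all 17 alternatives, from 0.8107 to 3.183 and from 0.7758 to 2.917 with single arrays left out. The mouse fit and the fit over both species called 0 genes under every alternative run. The rat fit called 224 genes as reported, 23 with a floor at the 40th percentile, 39 with no filter on low signals, 61 with no variance trend and 0 without any single array. Of the rat calls 42.9% were higher as reported and 60.3% with common median scaling. The species difference called 3 genes as reported, 10 with common median scaling, 6 on values as deposited, 11 with a floor at the 40th percentile, 7 with a floor of 1, 22 with no filter, 5 with probe sets averaged per gene, 1 with no variance trend, and 0 to 81 with single arrays left out.

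The replicate numbers were not stated to pair samples, and the differences between replicates 1 and 2 of the control and ventilated groups correlated at -0.285 across mouse genes and -0.106 across rat genes. With the replicate block the calls were 0 in the mouse, 146 in the rat, 0 over both species and 0 for the species difference. With the crossed pairing, chosen after seeing the data, they were 0, 232, 0 and 38.

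Leaving out single arrays turned the sign of several log2 differences, none of them called. Mt3 ranged from -0.5099 to 0.0898 in the mouse and from -0.09965 to 0.4456 over both species, where a floor at the 40th percentile gave -0.04182. Slc30a1 ranged from -0.2675 to 0.1758 in the mouse, from -0.813 to 0.1893 in the rat, from -0.3501 to 0.05077 over both and from -0.7714 to 0.2308 between species. Socs3 in the mouse ranged from -0.1018 to 2.846. In the rat, Sod1 ranged from -0.04597 to 0.1998 (-0.0373 with the mean of its probe sets), Slc30a4 from -0.2183 to 0.3947 and Slc30a2 from -0.1883 to 0.2345 (-0.007306 with common median scaling and -0.09927 on values as deposited).

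The rat probe set listed under Mt1m and Mt2A had 0.8316 with a floor at the 40th percentile, with no filter and with no variance trend, where its call was lost, and 0.7504 to 0.8725 with single arrays left out. The median of the rat zinc and copper list ranged from -0.1322 to 0.08498 with single arrays left out. That of the rat regulators ranged from -0.3658 to 0.1176, and was -0.3272 on values as deposited, 0 with a floor at the 40th percentile and -0.05932 with the filter at the 50th. The causes of these shifts were not tested. Rat Mt3 and Slc30a1 and mouse Slc30a1 lay near the floor and gave no value with the filter at the 50th percentile.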
